A study of Homo sapiens with 7 samples.

Results

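The 36 genes described here belong to the unfolded protein response and the integrated stress response, and their mRNA levels were followed upon deadenylase silencing in the human lung cancer line NCI-H520, which is of squamous cell origin. The genes were chosen by their known roles, but with earlier results of these data already known. The roles are endoplasmic reticulum (ER) chaperones, disulfide isomerases, components of ER-associated degradation, stress sensors, transcription factors, stress effectors, and enzymes of serine, folate and asparagine synthesis. All 36 were found among the 19038 named genes of the array, and all 36 were well above background on every array. Where a gene had several probes, the probe with the highest mean signal stood for it.

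Gene expression was measured on 7 single-colour microarrays, with 1 array per group. The groups were empty-vector, non-target-vector, anti-PARN-shRNA, anti-CNOT6-shRNA, anti-CNOT6L-shRNA, anti-CNOT7-shRNA and anti-NOC-shRNA. The silenced genes encode deadenylases, enzymes that shorten the poly(A) tail of mRNAs, and NOC stands for nocturnin, whose gene symbol is NOCT. All groups, the controls included, were treated alike: 6 µg of pLKO.1 plasmid in cationic liposomes, puromycin at 6 µg/mL from 12 h onwards, and harvest at 72 h. Every comparison is therefore made among transfected and puromycin-selected cells, and untransfected cells were not analysed here. Puromycin is an inhibitor of translation. The labels give the CNOT6L shRNA the same target accession as the NOC shRNA. With 1 array per group no difference between single arrays has a replicate check.

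The unfolded protein response is set off when unfolded proteins build up in the ER. Its membrane sensors IRE1 (gene ERN1), PERK (gene EIF2AK3) and ATF6 act through splicing of XBP1 mRNA, phosphorylation of the translation factor eIF2 and release of an ATF6 fragment, and together they raise chaperones and degradation factors. PERK shares its target with other kinases that sense amino acid shortage, double-stranded RNA or heme shortage, and the shared branch, in which ATF4 mRNA is translated more when eIF2 is phosphorylated, is called the integrated stress response. Most of these steps lie beyond mRNA abundance: splicing, phosphorylation and translation were not measured by these arrays.

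The ER stress response element is the DNA sequence through which ATF6 and XBP1, with the factor NF-Y, are known to act on chaperone genes, and it is shown because some of the genes described below carry it and others do not. Promoter sequences (RefSeq, GRCh38.p14, 250 bases before to 50 bases after each annotated start) were found for 33 of the 36 genes, with 46 promoters in all. The element was searched on both strands as CCAAT and CCACG separated by 9 bases. It was present in 27 of all 35116 promoters (0.0769%) and in 9 of the 46 promoters of the stress genes (19.6%), which belong to CALR, CANX, CRELD2, HSP90B1, HSPA5, PDIA6 and XBP1. A second form, ATTGG and CCACG separated by 1 base, was in 19 of all promoters (0.0541%), among them HERPUD1 and SDF2L1. The element bound by ATF4 with a C/EBP partner, searched as TGATG and AA separated by 1 base, is a shorter motif and was in 1270 promoters (3.62%), and among the stress genes it was in ASNS, ATF3, CHAC1 and HERPUD1. In the promoters of these genes no match overlapped a match to another of the 3 motifs. A match describes the letters of the window and does not show that a factor binds there. The sequences of genes whose values are described below are shown, with the motif in capitals and 12 flanking bases on each side:
HSPA5 (chr9:125241379-125241421, minus strand): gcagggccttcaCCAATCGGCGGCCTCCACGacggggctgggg
PDIA6 (chr2:10812841-10812883, minus strand): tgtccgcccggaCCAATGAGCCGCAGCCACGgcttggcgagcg
CANX (chr5:179698766-179698808, plus strand): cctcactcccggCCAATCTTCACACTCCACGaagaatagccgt
XBP1 (chr22:28800591-28800633, minus strand): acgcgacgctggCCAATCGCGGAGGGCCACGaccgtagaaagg
HERPUD1 (chr16:56932013-56932047, plus strand, second form): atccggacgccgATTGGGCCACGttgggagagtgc
CHAC1 (chr15:40953250-40953281, plus strand, ATF4 element in reverse orientation): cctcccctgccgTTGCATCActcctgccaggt
The motif of HSPA5 starts 66 bases, that of PDIA6 86 bases and that of XBP1 52 bases before the annotated start.

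Levels are on the log2 scale, as the processed signal relative to the 75th percentile of its array, so a difference of 1 is a 2-fold difference and 0 is the level of a probe at that percentile. The level of 1 gene is not comparable with that of another, because each probe has its own response. Values are listed in the order empty-vector, non-target, PARN, CNOT6, CNOT6L, CNOT7 and NOC shRNA. All arrays lay on 1 slide: the first 4 of that order were in slide row 1 and the last 3 in slide row 2, which held no control. Image extraction for the NOC shRNA array was done on a different day. That percentile was lowest for CNOT6 shRNA (1366) and highest for CNOT7 shRNA (3986), and 82.0% to 91.4% of probes were above background. Each targeted mRNA was lowest on its own array, at 45.8% of the control mean for PARN, 54.2% for CNOT7, 63.0% for CNOT6L, 74.3% for NOCT and 89.6% for CNOT6. NOCT was near the lower end of the scale, at -4.96 on its own array, beside -4.89 on the CNOT7 shRNA array. Its controls were at -4.32 and -4.74. CNOT6 was at 0.21 on its own array, beside 0.42 and 0.32 in the controls. Silencing of NOCT and CNOT6 is thus not clearly shown, and silencing is used here as the name of the shRNA array. The epithelial genes EPCAM, CDH1, KRT8, KRT18 and KRT19 and the squamous gene SOX2 were above background on 7 arrays, while the squamous markers TP63 and KRT5 were above background on 2 and 4 of the 7. PTPRC, CD3E, COL1A1, COL1A2 and PECAM1, markers of other cell types, were also above background on 7 arrays, so being above background does not by itself mark the cell type.

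No stress gene differed 2-fold from both control arrays with any shRNA. Over all 19038 genes the share that did was 0.483% for PARN, 0.478% for CNOT6, 0.856% for CNOT6L, 0.966% for CNOT7 and 1.32% for NOC. The control arrays themselves differed from each other by 2-fold for 0 of the 36 stress genes, against 11.6% of all genes, and by 1.5-fold for 0 of 36, against 22.7%. Over the 7 arrays the range of a stress gene had a median of 0.54 log2, from 0.24 for SDF2L1 to 1.10 for PPP1R15A, beside 0.62 for the 16463 genes above background on every array. A range of at least 2-fold was reached by 2 of the 36 (5.56%), PPP1R15A and NUPR1, beside 19.7% of those genes. Signal levels differed between the lists: 6510 of the 16463 genes had a control mean below -2, against 1 of the 36. The shares and ranges given here were not matched for signal level. RNA came from whole cultures, so fewer cells with a transcript and less of it per cell cannot be told apart.

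At 1.5-fold against both controls, 4 stress genes passed on some array. HSPA5 was higher upon CNOT6L and NOC silencing, 1 of 36 in each case (2.78%), beside 1.47% and 1.49% of all genes. ATF4 was higher upon CNOT6 silencing, beside 1.99% of all genes. PPP1R15A was lower upon CNOT6L silencing, beside 2.76% of all genes. NUPR1 was lower upon CNOT6 silencing, beside 1.34%. Both PPP1R15A and NUPR1 were lower upon CNOT7 and upon NOC silencing, 2 of 36 each (5.56%), beside 3.24% and 3.56% of all genes. None passed in either direction upon PARN silencing, where 0.326% of all genes were higher and 1.41% lower, and none was higher upon CNOT7 silencing, where 1.15% of all genes were. With 1 or 2 genes of 36 in each case, these shares are near the background.

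**Figure D1:**
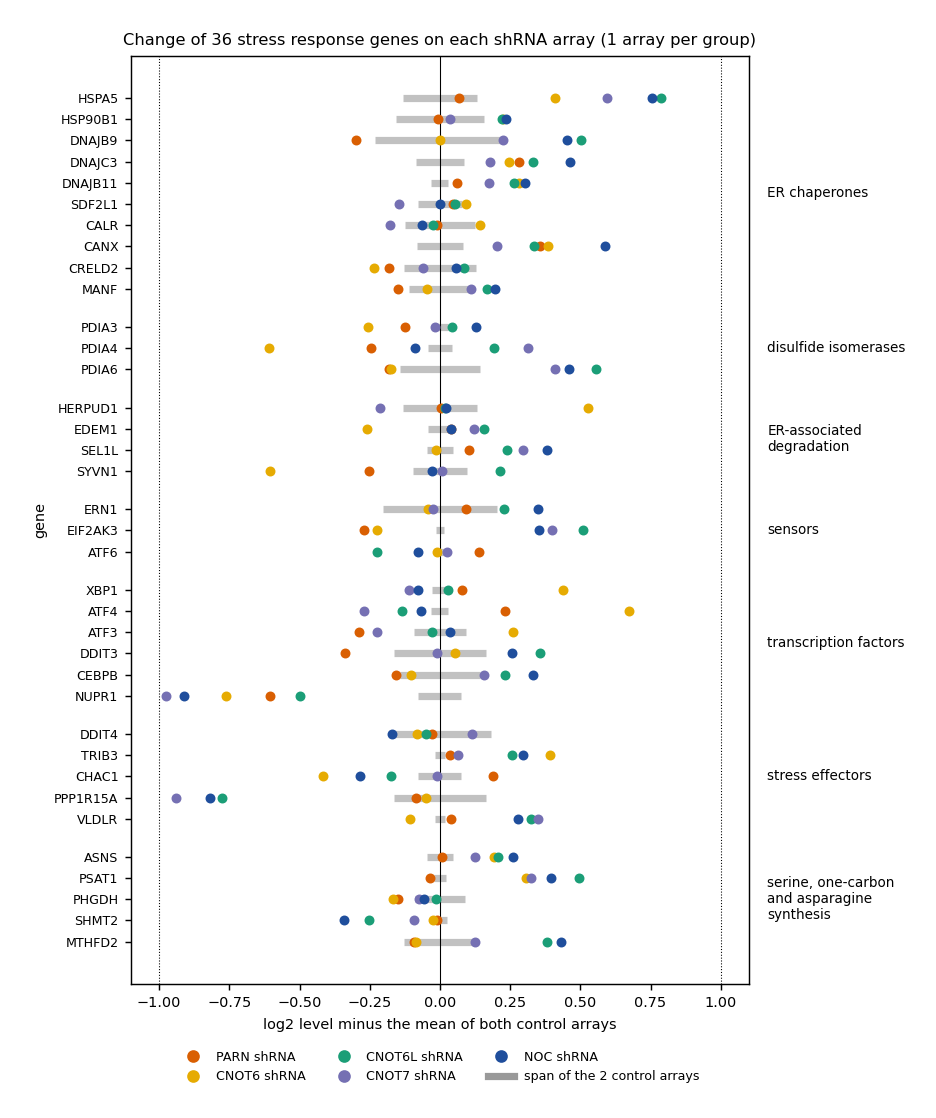
Log2 level of each of the 36 genes on the 5 shRNA arrays minus the mean of both control arrays, grouped by role. Points are single arrays, grey bars span the 2 control arrays and dotted lines mark 2-fold. HSPA5 lies to the right on the CNOT6L, CNOT7 and NOC shRNA arrays, NUPR1 lies to the left on all 5, PPP1R15A lies to the left on 3, and no point passes 2-fold.

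Among the ER chaperones, HSPA5 (BiP, the main ER Hsp70 and the classical readout of the unfolded protein response, probe A_24_P98411) had the widest range. Its levels were 3.74, 3.48, 3.68, 4.02, 4.40, 4.21 and 4.37. The 3 arrays of slide row 2 were the highest and did not overlap with the 4 of row 1, within which the CNOT6 shRNA array was the highest. Against the control mean HSPA5 mRNA differed by 0.07 upon PARN silencing, 0.41 upon CNOT6 silencing, 0.79 upon CNOT6L silencing, 0.60 upon CNOT7 silencing and 0.76 upon NOC silencing.

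DNAJB9 (ERdj4, a co-chaperone of BiP known to restrain IRE1) had levels of 2.65, 3.11, 2.58, 2.88, 3.38, 3.11 and 3.34. The CNOT6L and NOC shRNA arrays were the highest, but the non-target control matched the CNOT7 shRNA array and stood 0.46 above the empty-vector array, the widest gap between the controls among the 36 genes. CANX (calnexin, a lectin chaperone of glycoproteins) had levels of 2.26, 2.10, 2.54, 2.57, 2.52, 2.38 and 2.77. Here both controls were below all 5 shRNA arrays. The other probe of CANX, A_24_P345993, gave 0.31, 0.66, 0.54, 0.48, 1.01, 0.84 and 1.11, with the non-target control above the PARN and CNOT6 shRNA arrays, so that pattern was not shared by both probes.

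The other 7 chaperones ranged over 0.24 log2 (SDF2L1) to 0.55 log2 (DNAJC3, the P58IPK co-chaperone). DNAJC3 and DNAJB11 (ERdj3) were, like CANX and the pseudokinase gene TRIB3, above both controls on all 5 shRNA arrays. These 4 of 36 genes (11.1%) compare with 2.58% of all genes, and the 5 shRNA arrays share both controls. Upon PARN silencing DNAJB11 and TRIB3 cleared the nearer control by only 0.03 and 0.02, and after quantile normalization DNAJB11 was at -0.03 against the control mean upon CNOT6 silencing and TRIB3 at -0.03 upon PARN silencing, so the pattern held under that scaling for neither. Upon CNOT6L and upon NOC silencing 9 of the 10 chaperones were above the control mean, with medians of 0.24 and 0.27, and the exception was CALR (calreticulin) on both. After quantile normalization the counts were 9 of 10 upon CNOT6L silencing and 7 of 10 upon NOC silencing. The exception upon CNOT6L silencing was then SDF2L1, at -0.04, with CALR at 0.007. The controls themselves differed, the non-target array standing 0.19 above the empty-vector array in the chaperone median. Against the non-target array alone 7 of 10 chaperones were higher on each of these shRNA arrays, with medians of 0.17 and 0.15. The median over all genes was -0.01 and -0.05, and genes with a control level between 2 and 4 or between 4 and 6, where all 10 chaperones but HSP90B1 and CALR lie, had medians of 0.08 and 0.11 upon CNOT6L silencing and 0.07 and 0.11 upon NOC silencing. Upon PARN silencing 5 of 10 chaperones were above the control mean, upon CNOT7 silencing 7 of 10, and upon CNOT6 silencing 7 of 10, which became 3 of 10 after quantile normalization.

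The disulfide isomerases form and rearrange disulfide bonds in the ER. PDIA6 (A_24_P319715) had levels of 2.45, 2.73, 2.41, 2.42, 3.15, 3.002 and 3.05. The row 2 arrays were again the 3 highest, without overlap. PDIA4 had levels of 1.63, 1.72, 1.43, 1.07, 1.87, 1.99 and 1.58, lowest upon CNOT6 silencing, where it was 0.61 below the control mean. PDIA3, the isomerase that works with calnexin and calreticulin, ranged over 0.38 log2. All 3 isomerases were below the control mean upon PARN silencing (median -0.18) and upon CNOT6 silencing (median -0.26), and all 3 were above it upon CNOT6L silencing (median 0.19). The direction of PDIA3 was not shared by its other probe A_33_P3223923, which lay 0.09 and 0.12 above the control mean upon PARN and CNOT6 silencing. Upon CNOT6L silencing PDIA3 was only 0.04 above the control mean, and -0.07 after quantile normalization.

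In ER-associated degradation, misfolded proteins are carried back to the cytosol and ubiquitinated. SYVN1 (HRD1, the ubiquitin ligase at the centre of this route) had levels of 2.42, 2.61, 2.26, 1.91, 2.73, 2.52 and 2.49, lowest upon CNOT6 silencing at 0.61 below the control mean. HERPUD1, a membrane protein that binds this ligase, had levels of 6.41, 6.67, 6.54, 7.06, 6.55, 6.32 and 6.56, highest upon CNOT6 silencing at 0.53 above the control mean. The ligase and its partner thus lay on opposite sides of the controls on that array, although the HERPUD1 difference was -0.03 after quantile normalization and that of SYVN1 stayed at -0.63. SEL1L, the adaptor of SYVN1, and EDEM1, which trims mannose from misfolded glycoproteins, ranged over 0.43 and 0.42 log2.

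Of the sensors, EIF2AK3 (A_23_P135857) had levels of 0.10, 0.07, -0.18, -0.14, 0.60, 0.49 and 0.44. The control arrays lay within 0.03 of each other, the PARN and CNOT6 shRNA arrays were below them and the 3 arrays of row 2 above them. ERN1 had levels of -4.06, -4.47, -4.17, -4.31, -4.03, -4.29 and -3.91, near the lower end of the scale and with controls 0.41 apart. The CNOT6L and NOC shRNA arrays were the only ones outside the span of the controls, above it by 0.02 and 0.15. For CNOT6L shRNA that is less than the SD of 0.085 between the spots of this probe on its array. ATF6 had levels of 0.67, 0.71, 0.83, 0.68, 0.46, 0.71 and 0.61. It was lowest upon CNOT6L silencing and highest upon PARN silencing, within a range of 0.37 log2. The 3 sensor mRNAs therefore did not share an order over the arrays.

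The transcription factors followed no common order either. NUPR1, a small stress-induced chromatin protein (A_24_P270728), had levels of 0.54, 0.70, 0.02, -0.14, 0.12, -0.35 and -0.29. It was the only one of the 36 genes for which all 5 shRNA arrays were below both controls (2.78%, beside 4.23% of all genes). The differences from the control mean were -0.60, -0.76, -0.50, -0.98 and -0.91 in array order, so that NUPR1 mRNA stood at 50.9% of the control mean upon CNOT7 silencing and at 70.8% upon CNOT6L silencing. Its difference within slide row 1, where the PARN and CNOT6 shRNA arrays share a row with the controls, was of the same direction on both.

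ATF4, the central factor of the integrated stress response, had levels of 6.56, 6.62, 6.82, 7.27, 6.46, 6.32 and 6.53. The CNOT6 shRNA array was the highest at this scaling, at 159% of the control mean. XBP1, the substrate of IRE1, had levels of 4.89, 4.84, 4.95, 5.30, 4.90, 4.76 and 4.79, and was likewise highest upon CNOT6 silencing. DDIT3 (CHOP, a factor linked to cell death after prolonged stress) had levels of 1.66, 1.99, 1.49, 1.88, 2.18, 1.81 and 2.08. Its controls were 0.33 apart, the PARN shRNA array was below both, and the CNOT6L and NOC shRNA arrays were above both. ATF3 and CEBPB, which act downstream of ATF4, ranged over 0.55 and 0.49 log2.

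ATF4, HERPUD1 and XBP1 were highest upon CNOT6 silencing, and on that array differences from the controls moved with the signal level of all genes. Among the 120 genes with a control level above 6, the median difference from the control mean was 0.53 on the CNOT6 shRNA array, with quartiles of 0.40 and 0.65. The 4 stress genes in that bin had a median of 0.38 there. Among the 584 genes between 4 and 6 the median was 0.19, and among the 2060 genes between 2 and 4 it was 0.03. After quantile normalization, which gives all arrays the same distribution, the CNOT6 difference was 0.04 in place of 0.67 for ATF4 and 0.18 in place of 0.44 for XBP1. The CNOT7 shRNA array had a median of -0.29 in the bin above 6. NUPR1, PDIA4 and SYVN1 kept their values on the CNOT6 shRNA array, at -0.78, -0.61 and -0.63 after quantile normalization.

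**Figure D2:**
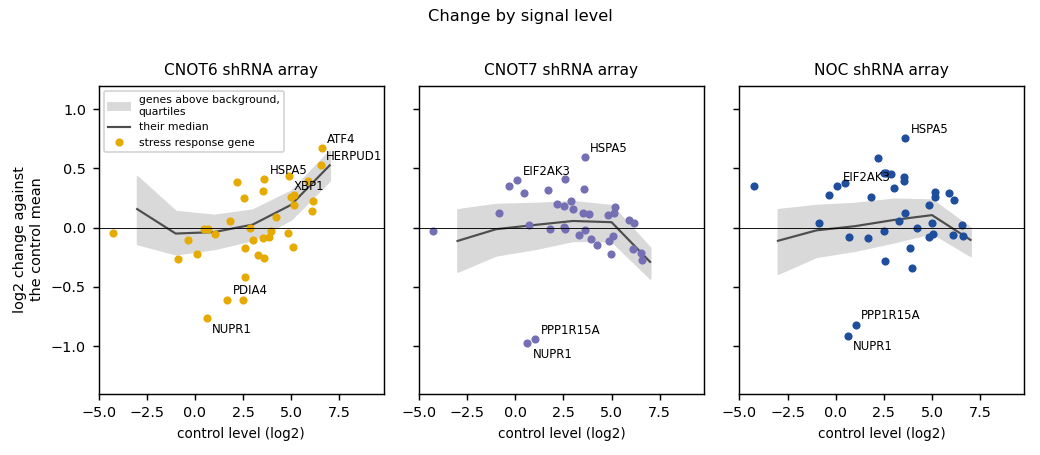
Log2 difference from the control mean against the control level (log2) on the CNOT6, CNOT7 and NOC shRNA arrays. The grey band and line give the quartiles and median of genes above background on every array in 6 bins of control level, drawn at the bin centres and, for the open end bins, 1 beyond their edge, and points are the 36 stress genes. ATF4 and HERPUD1 lie on or near the band on the CNOT6 shRNA array, whereas NUPR1 lies below it on all 3 arrays, and on the CNOT7 and NOC shRNA arrays PPP1R15A lies below and HSPA5 above it.

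Among the stress effectors, PPP1R15A (GADD34, the phosphatase subunit that reverses eIF2 phosphorylation, A_23_P90172) had the widest range of all 36 genes. Its levels were 0.88, 1.21, 0.96, 0.99, 0.27, 0.10 and 0.23. The 4 arrays of row 1 and the 3 of row 2 formed separate ranges, and the differences from the control mean were -0.09 and -0.05 upon PARN and CNOT6 silencing but -0.78, -0.94 and -0.82 upon CNOT6L, CNOT7 and NOC silencing.

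CHAC1, which degrades glutathione and is a target of ATF4, had levels of 2.50, 2.66, 2.77, 2.16, 2.40, 2.57 and 2.30. It was lowest upon CNOT6 silencing, and its other probe A_33_P3376965 was also lowest there, at -1.03. TRIB3, a feedback inhibitor of ATF4, VLDLR, a lipoprotein receptor induced by ATF4, and DDIT4 (REDD1, an inhibitor of mTORC1) ranged over 0.41, 0.46 and 0.36 log2.

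Of the 5 enzymes of serine, folate and asparagine synthesis, MTHFD2, a mitochondrial folate enzyme, had the widest range. Its levels were 3.41, 3.67, 3.45, 3.45, 3.92, 3.67 and 3.97, highest upon NOC and CNOT6L silencing, with the CNOT7 shRNA array at the level of the non-target control. PSAT1, of serine synthesis, ranged over 0.53 log2, SHMT2, the mitochondrial serine hydroxymethyltransferase, over 0.36, ASNS, the asparagine synthetase, over 0.31 and PHGDH, the first enzyme of serine synthesis, over 0.25. PSAT1 was 0.50 and SHMT2 -0.25 against the control mean upon CNOT6L silencing, so enzymes of connected steps lay on opposite sides of the controls.

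Taking the 36 genes as a whole, the median difference from the control mean was -0.01 upon PARN silencing, -0.02 upon CNOT6 silencing, 0.20 upon CNOT6L silencing, 0.05 upon CNOT7 silencing and 0.16 upon NOC silencing. Over all 19038 genes it was -0.03, 0.04, -0.01, -0.04 and -0.05. The number of stress genes above the control mean was 16, 15, 26, 21 and 24 of 36. The non-target array stood 0.07 above the empty-vector array in the same median. The first form of the ER stress response element was in the promoter of 7 genes. Their medians were -0.01, 0.22, 0.22, 0.04 and 0.24 in array order. The other 26 genes with a promoter sequence had medians of -0.01, -0.03, 0.21, 0.11 and 0.23. These 26 include HERPUD1 and SDF2L1, which carry the second form, so they do not all lack the element. After quantile normalization the median of the 7 genes upon CNOT6 silencing was -0.18 in place of 0.22, a turned direction, while upon CNOT6L, CNOT7 and NOC silencing it was 0.27, 0.16 and 0.34. The 26 genes were not summarised after that normalization, so these values cannot be set against theirs.

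The comparison in which an arm held more than 1 array set the 5 shRNA arrays against the 2 controls with limma, a linear model fitted to all probes. None of 38004 probes (0.0%) and none of the 36 genes had an adjusted p under 0.05. At an unadjusted p under 0.05, limma listed 3.74% of probes and 4 of the 36 genes (11.1%). NUPR1 was lower on the shRNA arrays by -0.75 ± 0.16 log2 (SE, limma unadjusted p = 0.000933, adjusted p = 1.0), in 5 of 5 shRNA arrays. HSPA5 differed by 0.52 ± 0.19, CANX by 0.37 ± 0.13 and DNAJC3 by 0.30 ± 0.12 (SE). With slide row as a block the differences were -0.68 for NUPR1, 0.24 for HSPA5, 0.37 for CANX and 0.26 for DNAJC3, and again no stress gene had an adjusted p under 0.05. In this fit the spread comes from arrays of different shRNAs and of different control plasmids, since no group was repeated.

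Because several genes divided the arrays by slide row, the 3 arrays of row 2 (CNOT6L, CNOT7 and NOC shRNA) were set against the 4 of row 1 (both controls, PARN and CNOT6 shRNA), a comparison added after the values were seen. All row 2 arrays lay above all row 1 arrays for 7 of 36 genes (19.4%, beside 11.6% of all genes): HSPA5, PDIA6, SEL1L, EIF2AK3, CEBPB, VLDLR and PSAT1. They lay below for ATF4, PPP1R15A and SHMT2, 3 of 36 (8.33%, beside 15.9%). ATF4 overlapped after quantile normalization, where its row difference was 0.00 in place of -0.38. CEBPB overlapped there too, at 0.24 in place of 0.31. With the deposited series table ATF4 and SHMT2 overlapped, and SHMT2 also did with normexp background correction. Without scaling, ATF4, SHMT2 and PPP1R15A overlapped.

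By limma, 3 stress genes were higher in row 2 at an adjusted p under 0.05 (8.33%, beside 2.42% of probes) and 1 was lower (2.78%, beside 4.45%). HSPA5 was 1.51-fold higher, at a log2 difference of 0.59 ± 0.12 (SE, limma adjusted p = 0.0263). PDIA6 was 1.48-fold higher (0.56 ± 0.10, limma adjusted p = 0.0158) and EIF2AK3 1.46-fold higher (0.54 ± 0.10, limma adjusted p = 0.0202). PPP1R15A was at 57.0% of its row 1 level (-0.81 ± 0.10, limma adjusted p = 0.00496). HSPA5, PDIA6 and EIF2AK3 were thus higher on the arrays on which PPP1R15A was lower. These genes passed on a split chosen after the values were seen, and they do not stand for their roles as a whole. The brightest probes of all other chaperones, isomerases and sensors overlapped between the rows.

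These calls depended on the processing and on single arrays. With the deposited series table none of the 4 was called, at limma adjusted p of 0.0574 to 0.0655, at differences of 0.65 for HSPA5, 0.62 for PDIA6, 0.60 for EIF2AK3 and -0.76 for PPP1R15A. Without both the PARN and CNOT6 shRNA arrays none was called either, at differences of 0.71, 0.47, 0.42 and -0.84. Without the PARN, CNOT6L, CNOT7 or NOC shRNA array, limma left PPP1R15A as the only one of the 36 genes called, with adjusted p of 0.0213, 0.0338, 0.037 and 0.0331, whereas the differences of HSPA5, PDIA6 and EIF2AK3 kept their direction at 0.50 to 0.65 log2. Without the empty-vector array 3 genes were called and HSPA5 had a limma adjusted p of 0.0556, and without the non-target array 9 were called. Slide row and shRNA cannot be told apart for these 3 arrays, since row 2 held no control. Within row 2 no stress gene differed 1.5-fold from both row mates, where 2.5% of all genes did so for CNOT6L, 1.12% for CNOT7 and 1.36% for NOC.

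**Figure D3:**
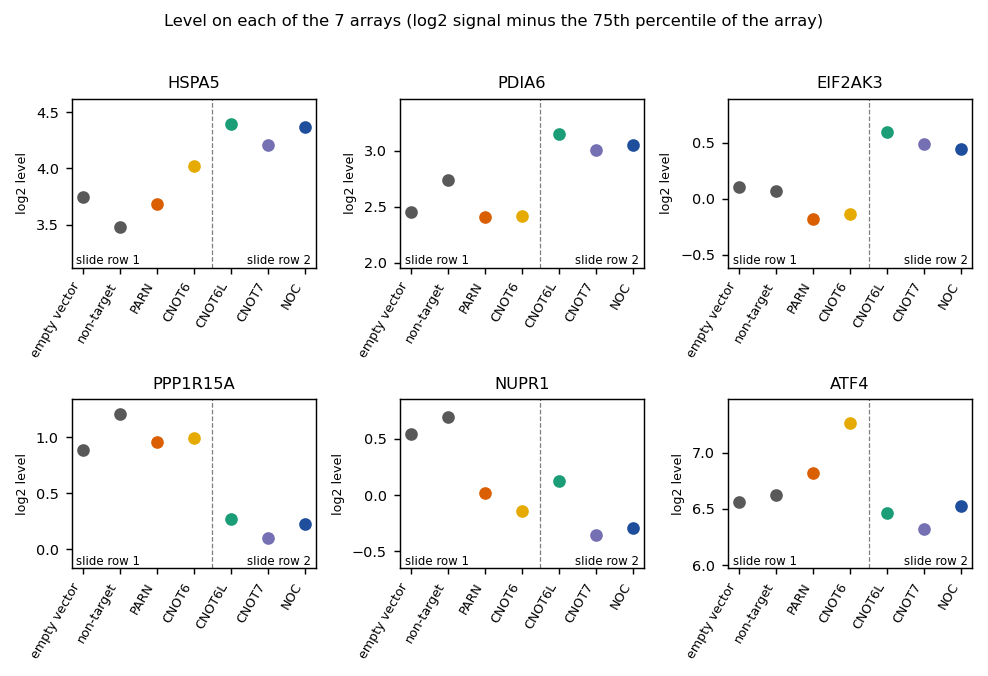
Log2 level (signal minus the 75th percentile of the array) of 6 genes on each of the 7 arrays, with the dashed line between slide rows 1 and 2 and every panel spanning 1.5 log2 units. HSPA5, PDIA6 and EIF2AK3 are higher and PPP1R15A lower on all 3 arrays of row 2, NUPR1 is lower on all 5 shRNA arrays, and ATF4 is highest on the CNOT6 shRNA array at this scaling, though not after quantile normalization.

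Genes with a further probe gave a check of these row differences on other sequence. The further probes of HSP90B1 (GRP94, the ER Hsp90), CANX, PDIA3 and SEL1L were all higher in row 2 without overlap, as were 11.6% of all genes. Their row differences were 0.48, 0.49, 0.53 and 0.52 log2, beside 0.11, 0.19, 0.15 and 0.28 for the brightest probes. The brightest probes of HSP90B1, CANX and PDIA3 overlapped between the rows, so the probes of these genes differed. The further probes of ATF3, CHAC1 and VLDLR overlapped between the rows. VLDLR did not overlap by its brightest probe, so its probes differed too. Its row differences were 0.33 for the brightest probe and 0.14 for the further one, which was near the lower end of the scale. HSPA5, PDIA6, EIF2AK3, PPP1R15A and NUPR1 had 1 named probe each, so the genes called by limma were not checked in this way.

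**Figure D4:**
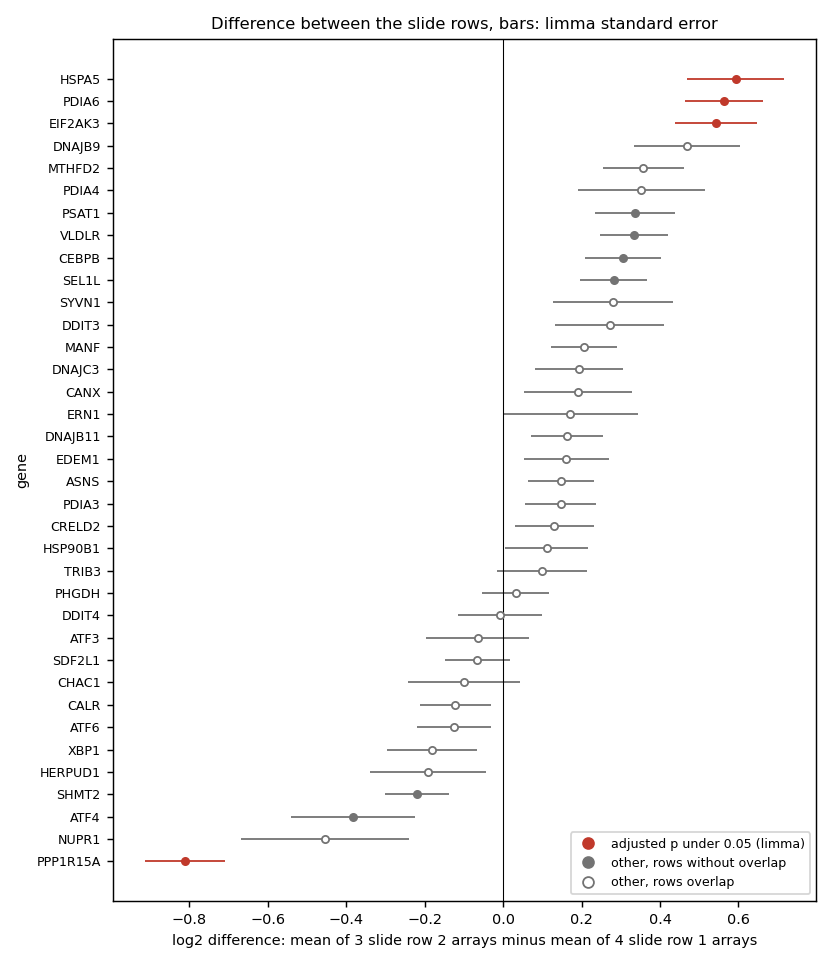
Mean log2 level of the 3 arrays of slide row 2 minus that of the 4 arrays of slide row 1 for the 36 genes, with limma standard errors as bars. Red points have a limma adjusted p under 0.05 (HSPA5, PDIA6, EIF2AK3 and PPP1R15A), filled grey points are other genes whose rows do not overlap and open points are genes whose rows overlap.

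Other genes of the same pathways were counted from lists. Of 32 further genes of the unfolded protein response and ER quality control, 0 differed 2-fold from both controls with any shRNA, 9 lay higher in row 2 without overlap and 2 lower, where 11.6% and 15.9% of all genes did. By limma at an adjusted p under 0.05, 4 of the 32 were higher in row 2 and 0 lower, beside 2.42% and 4.45% of probes: the coat protein SEC24D and the degradation factors DERL1, DERL2 and EDEM3, by 0.57, 0.40, 0.37 and 0.40 log2. The widest ranges in that list were those of WFS1, HYOU1 and SEC24D. Of 20 further genes of the ATF4 and amino acid response, SLC6A9 (a glycine transporter) differed 2-fold from both controls upon CNOT6 silencing, as 0.478% of all genes did. Its level there was 1.88 beside 2.95 and 2.92 in the controls. SESN2 (sestrin 2, a leucine sensor) did so upon NOC silencing, beside 1.32% of all genes, with levels of 1.36, 1.46, 1.31, 1.26, 2.38, 2.23 and 2.47. SESN2 was higher in row 2 by 1.01 ± 0.09 (SE, limma adjusted p = 0.00124), a wider gap than that of any of the 36 genes, and NIBAN1 was also called. Without overlap, SESN2 and NIBAN1 lay higher in row 2 and CEBPG and FGF21 lower, 2 of 20 each, beside 11.6% and 15.9% of all genes.

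Of the 10 further genes around eIF2 (its kinases, eIF2 and its exchange factor eIF2B), none was called by limma between the rows, and 3 of the 10, EIF2B4, EIF2B5 and PPP1R15B, lay lower in row 2 without overlap, beside 15.9% of all genes. PPP1R15B, the constitutive counterpart of PPP1R15A, had levels of 2.80, 3.098, 2.93, 2.94, 2.55, 2.55 and 2.71. Its row difference was -0.34 ± 0.09 log2 (SE, limma adjusted p = 0.0634), of the same direction as that of PPP1R15A. EIF2AK4 (GCN2, the amino acid sensor) had the widest range of the 10, 0.60 log2.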

How the data were processed

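The authors extracted the scans with Agilent Feature Extraction 10.7.3.1, per the file headers, and the deposited files hold a processed intensity for 62976 spots per array. The deposited series table holds log2 values shifted per array and centred per probe. Total RNA of 7 cultures, 1 per group, was hybridised, and groups were taken from the sample titles. From the processed intensity, log2 minus the 75th percentile of each array was taken, without control and outlier spots, and a probe's spots were averaged. The median SD between spots of 1 probe was 0.048 to 0.073 log2 for probes printed on 2 spots. Symbols came from a RefSeq table (GRCh38.p14), which named 24826 of 42405 probes, while the probe for CNOT6 took its name from the labels' accession after a missing zero was restored.

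A gene passed the fold rule at 2-fold (or 1.5-fold) or more from both controls in 1 direction, with the brighter side above background. limma 3.58.1 (R 4.3.3, lmFit and eBayes with trend, two-sided, Benjamini-Hochberg at 0.05) used probes above background on at least 2 arrays, and its p-values measure the spread between these arrays. The steps were tested on simulated data. Alternatives were quantile normalization, no scaling, normexp (offset 50, on median signals in place of the mean signals planned), the series table, the mean of all probes, kept outlier spots, filters on dim probes, other fold thresholds, slide row as a block and each array left out. Values on every array are given for the 14 stress genes with the widest range and for 7 anchors (HSPA5, XBP1, DDIT3, ATF4, ATF6, ERN1 and EIF2AK3), 17 genes in all, and the 3 widest ranges of each other list are named. The genes, lists and tests were chosen with earlier results of these data known. Figures and tables were made with Python 3.11.15.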

Additional observations from a re-analysis of the deposited data

How the results depend on the processing

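No stress gene reached 2-fold against both controls under the other normalizations, probe choices or filters run, except that without scaling between arrays 9 were lower upon CNOT6 silencing, and that without the empty-vector array PPP1R15A and NUPR1, 2 genes, were lower upon CNOT7 silencing (0 to 2 over the controls left out). At 1.5-fold the counts were 1 higher and 1 lower upon CNOT6 and upon CNOT6L silencing, 2 lower upon CNOT7 silencing, and 1 higher and 2 lower upon NOC silencing. The median difference of the 36 genes without scaling was -0.34 upon PARN silencing, -1.03 upon CNOT6 silencing, 0.60 upon CNOT6L silencing, 0.59 upon CNOT7 silencing and 0.38 upon NOC silencing, because the arrays differ in brightness. With quantile normalization it was -0.13 upon CNOT6 and 0.14 upon CNOT6L silencing, and with the mean of all probes 0.11 upon CNOT7 and 0.23 upon NOC silencing. With either control alone it ran from -0.081 to -0.0086 for PARN, -0.04 to 0.054 for CNOT6, 0.13 to 0.20 for CNOT6L, -0.0018 to 0.079 for CNOT7 and 0.0823 to 0.17 for NOC.

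In the limma comparison of the slide rows, 7 of the 36 genes were called with quantile normalization, 19 without scaling, 9 with normexp, 0 with the series table, 7 without both controls and 0 without the PARN and CNOT6 shRNA arrays. Leaving out each array in turn gave 1 to 9. Without scaling PPP1R15A had a row difference of -0.09 (limma adjusted p = 0.852), and with the series table the limma adjusted p of the 4 called genes ran from 0.0574 to 0.0655. The cause of these changes was not tested. In the comparison of 5 shRNA arrays with 2 controls no stress gene was called by limma under any alternative. No paired analysis was possible because each group has 1 array, and all carry the same replicate number. The number of arrays limits the precision.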

Other observations

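Heat shock genes, which respond to unfolded proteins outside the ER, were measured by 12 listed genes, all above background. Most encode cytosolic or nuclear proteins, but HSPD1 and HSPE1 encode mitochondrial chaperones. None differed 2-fold from both controls. The median difference from the control mean was -0.13 upon PARN silencing, 0.26 upon CNOT6 silencing, 0.36 upon CNOT6L silencing, 0.21 upon CNOT7 silencing and 0.36 upon NOC silencing. Most of these genes had a control level above 4. All genes with a control level between 4 and 6 had medians of 0.02, 0.19, 0.11, 0.05 and 0.11 in array order. Those above 6 had medians of 0.10, 0.53, -0.10, -0.29 and -0.10. The control arrays differed too: the non-target array was above the empty-vector array for 10 of the 12 genes, by a median of 0.41. HSPA1A, HSPA1B, DNAJB1 and BAG3 were higher on all arrays of slide row 2 (4 of 12, beside 11.6% of all genes), and HSP90AA1 was lower (1 of 12, beside 15.9%). BAG3, a co-chaperone of Hsp70 in autophagy, had levels of 2.91, 2.83, 2.83, 3.27, 3.73, 3.64 and 3.82, a row difference of 0.77 ± 0.12 log2 (SE, limma adjusted p = 0.00977). HSPA1B differed by 0.77 ± 0.14 (SE, limma adjusted p = 0.0191), but HSPA1A and HSPA1B are near-identical genes and their signals may be shared. DNAJB1 differed by 0.48 ± 0.11 (SE, limma adjusted p = 0.0377). By limma 3 of the 12 genes were thus called higher in row 2 and 0 lower, beside 2.42% and 4.45% of probes. CRYAB, a small heat shock protein, had the widest range of the list, 2.79 log2, with controls at -0.78 and 1.65.

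Of 11 aminoacyl-tRNA synthetase genes, several of which are known targets of ATF4, WARS1, GARS1 and EPRS1 lay higher in row 2 without overlap and SARS1, MARS1 and YARS1 lower, 3 of 11 each, beside 11.6% and 15.9% of all genes. By limma, which called 4.45% of probes lower in row 2, SARS1 (-0.41 ± 0.09, SE, adjusted p = 0.035) and MARS1 (-0.56 ± 0.13, SE, adjusted p = 0.0422) were lower. MARS1, AARS1 and SARS1 had the widest ranges of that list. INHBE had a range of 1.017 log2 in the ATF4 and amino acid list, set by controls at -3.69 and -4.71.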
